A study of Mus musculus with 12 samples.

Results

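Mouse hearts taken after ischemia and reperfusion (IR) were compared with hearts of sham-operated mice by bulk RNA sequencing. The IR hearts had 30 min of ischemia followed by 2 h of reperfusion, and the Sham hearts carry the same 2 h time label without a stated ischemia. The 8 libraries compared, 4 per group, were picked by their column names from the 12 in the series. The other 4 came from IR hearts that also received ML264, a compound the study uses to inhibit the transcription factor KLF5. They entered the fit through its estimate of spread, the filter on low counts, the scaling and the average levels. They took no part in the contrast itself. Total RNA came from frozen heart. The labels give no strain, sex, age, time of day or region of the heart. Nor do they say whether the libraries of a group are from different animals. The p-values therefore rest on the variation among libraries, part of which may be technical. Libraries are called Sham 1 to 4, IR 1 to 4 and ML264 1 to 4 by the replicate numbers of the labels, and values of a group are given in that order. Errors after a log2 fold change are standard errors (SE).

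Blocking a coronary artery starves heart muscle of oxygen and fuel, and restoring flow brings a second burst of injury from calcium overload, reactive oxygen species and opening of the mitochondrial permeability pore. Endothelial cells, fibroblasts and resident macrophages release cytokines within the first hours, and leukocytes follow from the blood. Messages with short half-lives can rise or fall within this time.

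Each of the 8 libraries held 22.26 to 29.93 M estimated counts (M, 1000000), of which 36.1 to 41.13% lay on mitochondrially encoded genes, and 3 counts correspond to 0.1002 to 0.1348 counts per 1000000 (CPM) at this depth. The 12 cardiomyocyte markers summed to 20800 to 24600 CPM in Sham and 23600 to 27100 CPM in IR, with no marker at 0. Of the atrial markers, the myosin light chain gene Myl7 was listed at 0 in all 8 libraries. In IR the libraries differed among themselves: Ddx3y, a Y-linked helicase gene, stood at 44.8, 38.8, 42.9 and 42 CPM in Sham 1 to 4 and 0.33, 52, 50.8 and 0.262 CPM in IR 1 to 4, so that IR 1 and IR 4 lay near 0 and the other 6 libraries did not. Arntl, which encodes the clock activator BMAL1, stood at 3.26, 10.4, 15.3 and 2.89 CPM in Sham and 11.1, 1.18, 2.01 and 1.05 CPM in IR. IR 1 and IR 4 carry low Y-linked levels and IR 1 a high Arntl level, and the labels give no field for sex or time of day. For most lists with calls, the counts are also given without both IR 1 and IR 4.

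Of 15952 genes tested, edgeR's quasi-likelihood test called 1235 (7.74%) at an adjusted p under 0.05, of which 730 were raised (4.58%) and 505 lowered (3.17%) in IR. In 2519 genes (15.8%) the 4 IR values did not overlap the 4 Sham values, and 675 of the raised and 467 of the lowered genes were among these, 92.5% of either set. The 2 sets differed in size and in level. Raised genes had a median log2 fold change of 0.84, and 295 of them (40.4%) changed at least 2-fold. Lowered genes had a median of -0.70, with quartiles of size of 0.52 and 0.94, and 106 (21%) fell at least 2-fold. The share of genes raised grew with the average level, from 1.99% below 0 log2 CPM through 4.30% between 2 and 4 to 11% above 6. The share lowered was largest between 2 and 4 log2 CPM, at 4.41%, and fell to 1.79% above 6. Lowered genes had a median transcript length of 3900 bases and 9 exons, raised genes 3520 bases and 8 exons, and all tested genes 3300 bases and 8 exons. Protein-coding genes made up 697 of the raised and 483 of the lowered set, and pseudogenes 29 and 20.

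The counts depended on single libraries. Without Sham 2, 3 or 4 or IR 4 the total called fell to 738, 659, 702 and 694, the raised genes to 433, 419, 433 and 450 and the lowered genes to 305, 240, 269 and 244, and without IR 1 the lowered genes fell to 329. Without both IR 1 and IR 4, 236 raised and 54 lowered genes were called, so that the raised share went from 59.1% to 81.4%. With the Y-linked level as a covariate 322 were raised and 134 lowered, and with Arntl 380 and 256. Upper-quartile scaling, which moved the median of all genes to -0.04, turned the split to 620 raised and 676 lowered. Without IR 2 and 3, chosen after the data were seen, 331 were raised and 236 lowered. Of the 156 genes named by the rule in the methods, 88 kept their call with any 1 library left out. The call was lost by 98 without IR 1 and 4, 66 without IR 2 and 3, 76 with the Y-linked covariate and 70 with Arntl. Either pair left out also leaves fewer IR libraries, and the part of this in the losses was not tested. None of the 1235 called genes changed direction in any of the fits. In bulk tissue, fewer cells of a type and less RNA per cell cannot be told apart, and this holds for each gene below.

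**Figure D1:**
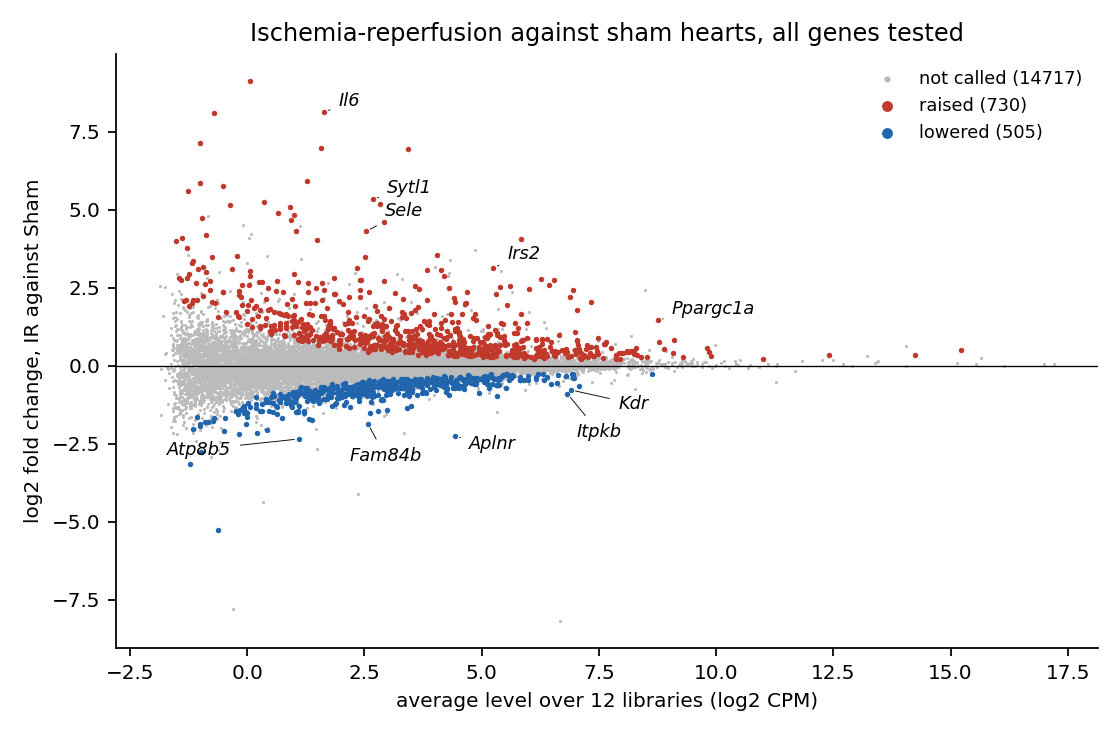
Each point is 1 of the 15952 genes tested, with its average level over the 12 libraries (x axis, log2 CPM) and its log2 fold change in IR against Sham (y axis). The 730 raised genes (red) reach larger changes and higher levels than the 505 lowered genes (blue), whose median change is -0.70.

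Among the lowered genes, the smallest adjusted p belonged to Fam84b, whose product has a lecithin retinol acyltransferase domain, at 7.33, 12.8, 11 and 8.91 CPM in Sham and 3.11, 3.34, 2.41 and 2.13 CPM in IR (log2 fold change -1.87 ± 0.22, adjusted p = 0.000299). Since 41.1% of its 31-base words also occur in transcripts of another gene, its level is uncertain; genes above 25% are called so throughout. Atp8b5, a phospholipid flippase, stood at 2.85, 4.89, 4.13 and 3.17 CPM in Sham and 0.769, 0.708, 0.724 and 0.749 CPM in IR (log2 fold change -2.35 ± 0.29, adjusted p = 0.000345). The 4 IR libraries of Atp8b5 lay within a narrow band far under the lowest Sham library, and those of Fam84b below every Sham library. Itpkb, the kinase that converts inositol trisphosphate to the tetrakisphosphate, stood at 150.0, 117, 140.0 and 140.0 CPM in Sham and 73.1, 84.4, 67.7 and 67.7 CPM in IR (log2 fold change -0.90 ± 0.11, adjusted p = 0.000381). It was the most abundant of these 3 genes, and no library of one group reached into the other. Genes named here and below for their small p or large change were taken only from genes without overlap. Their lack of overlap was therefore fixed by that choice.

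Other lowered genes with small p values were Dgcr8, Rsrp1, Ccnt2, Samhd1, Cables2 and Ppfibp2. Dgcr8, the partner of Drosha in microRNA processing, stood at 14.2, 12, 14 and 14.7 CPM in Sham and 8.79, 7.63, 7.36 and 7.41 CPM in IR (log2 fold change -0.81 ± 0.12, adjusted p = 0.00125). Rsrp1, which encodes a protein rich in arginine and serine, stood at 50.5, 67.5, 57.4 and 57.2 CPM in Sham and 41.7, 34.3, 31.2 and 34.8 CPM in IR (log2 fold change -0.71 ± 0.11, adjusted p = 0.00127). Ccnt2, a cyclin subunit of the elongation kinase P-TEFb, stood at 58.8, 54.7, 53.2 and 55.7 CPM in Sham and 41.3, 37.2, 42.3 and 41.8 CPM in IR (log2 fold change -0.45 ± 0.07, adjusted p = 0.00204). These 3 kept a gap between the lowest Sham and the highest IR library, with a change of under 2-fold. Samhd1, a hydrolase of deoxynucleoside triphosphates, stood at 32.3, 29.9, 38.6 and 36.1 CPM in Sham and 21.9, 24.8, 23.5 and 23.7 CPM in IR (log2 fold change -0.54 ± 0.09, adjusted p = 0.00236). Cables2, a cyclin-dependent kinase adaptor, stood at 10.9, 11.3, 11.2 and 11.3 CPM in Sham and 5.75, 6.72, 6.72 and 4.42 CPM in IR (log2 fold change -0.92 ± 0.15, adjusted p = 0.00195), and Ppfibp2, a liprin scaffold of cell contacts, at 25.7, 28.6, 34.8 and 28.6 CPM in Sham and 15.4, 21.6, 18.5 and 15.3 CPM in IR (log2 fold change -0.73 ± 0.12, adjusted p = 0.00218). The Sham libraries of Cables2 lay between 10.9 and 11.3 CPM, and no group overlapped the other in these 3 genes, as the naming rule required. The calls of the 9 genes from Fam84b to Ppfibp2 held in every fit made, those without IR 1 and 4 and those with the covariates included.

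Large falls, among lowered genes averaging at least 1 log2 CPM, were found in Aplnr and the genes that follow. Aplnr, the receptor for apelin on endothelial cells, stood at 34.7, 35.9, 57.1 and 32.4 CPM in Sham and 3.85, 15.6, 9.29 and 4.57 CPM in IR (log2 fold change -2.27 ± 0.56, adjusted p = 0.0398). The Sham libraries of Aplnr spread widely above IR, and the call ended when Sham 1, 2, 3 or 4 or IR 1, 3 or 4 or ML264 3 or 4 was left out. Cyth4, an exchange factor for ARF GTPases found in blood cells, stood at 2.99, 3.04, 6.04 and 2.11 CPM in Sham and 0.732, 1.42, 1.41 and 0.786 CPM in IR (log2 fold change -1.71 ± 0.32, adjusted p = 0.00527). Prdm1, the transcriptional repressor BLIMP-1, stood at 8.73, 7.86, 11.8 and 10.2 CPM in Sham and 2.75, 3.85, 4.99 and 2.58 CPM in IR (log2 fold change -1.45 ± 0.30, adjusted p = 0.0117), and Pcdh12, a protocadherin of endothelial contacts, at 8.82, 11, 15.6 and 12.2 CPM in Sham and 4.65, 4.09, 4.83 and 4.34 CPM in IR (log2 fold change -1.41 ± 0.28, adjusted p = 0.00959). In Cyth4, Prdm1 and Pcdh12 each IR library lay below the lowest Sham library, as the naming rule required. Tnfrsf19, a member of the tumour necrosis factor receptor family, stood at 2.04, 3.51, 6.43 and 2.01 CPM in Sham and 1.06, 1.34, 1.45 and 1.24 CPM in IR (log2 fold change -1.46 ± 0.33, adjusted p = 0.0125). Klhdc8a, a kelch-repeat gene (log2 fold change -1.50 ± 0.26, adjusted p = 0.00307), and Olfr974, an olfactory receptor gene (log2 fold change -1.49 ± 0.32, adjusted p = 0.0107), fell too and were still called without IR 1 and 4. Cyth4, Prdm1, Pcdh12 and Tnfrsf19 were not called without IR 1 and 4. Slitrk6, a transmembrane protein with leucine-rich repeats, had a log2 fold change of -1.46 ± 0.40, and its call ended without Sham 2, 3 or 4 or IR 1 or 4. Nedd1, which brings gamma-tubulin to the centrosome, had one of -1.37 ± 0.37, and its call ended without Sham 1, 2, 3 or 4 or IR 2, 3 or 4.

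**Figure D2:**
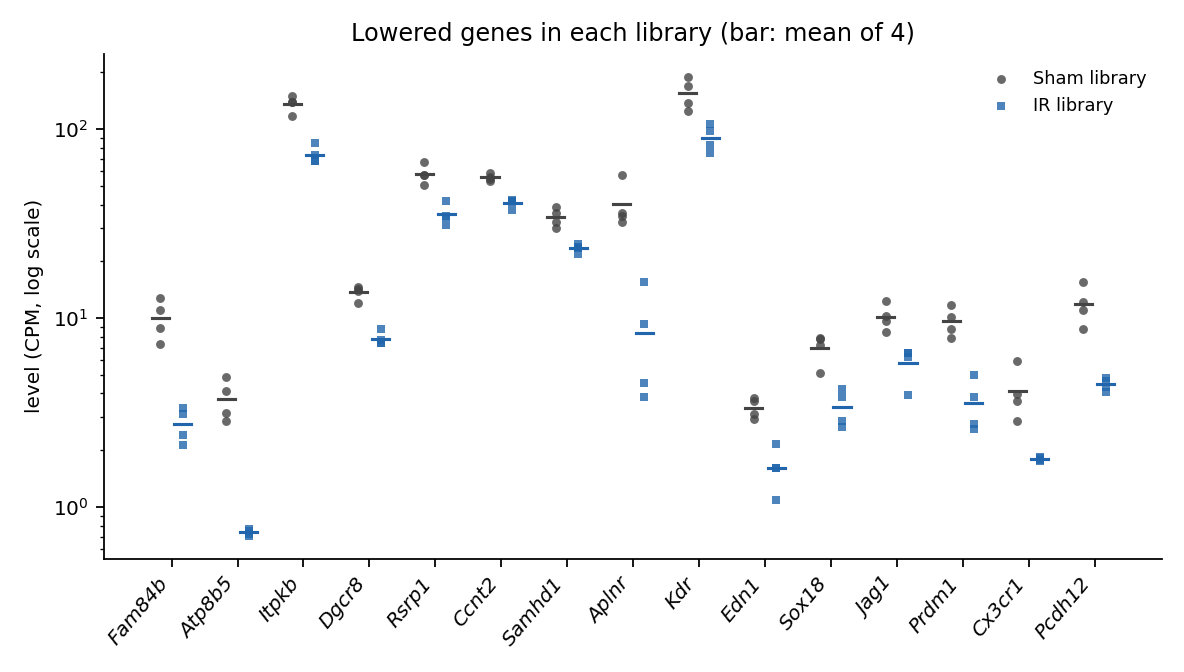
Level (y axis, CPM, log scale) of 15 lowered genes in each Sham library (grey circles) and each IR library (blue squares), with the mean of 4 as a bar. In every gene drawn the 4 IR values lie below the 4 Sham values, with a wide spread of the Sham values in Aplnr and a narrow one in Ccnt2. For genes named by smallest p or largest change, this was a condition of the choice.

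Zinc finger genes of the Zfp series, most of which encode DNA-binding repressors with tandem C2H2 fingers, gave the most lowered genes of the symbol families counted. Of 366 tested, 55 were lowered (15%) and 4 raised, against 3.17% and 4.58% of all genes, and they made up 10.9% of the lowered genes but 2.29% of the genes tested. Over all 366 the median log2 fold change was -0.30, with 287 (78.4%) below 0, against 0.00 and 49.7% over all tested genes. The changes were small: the 55 lowered members had a median of -0.75, a range of -1.87 to -0.32, and 9 fell at least 2-fold. Their values did not overlap between the groups in 50 of the 55, against 467 of all 505 lowered genes (92.5%). The mean centred log2 level over the family stood at 0.10, 0.13, 0.18 and 0.12 in Sham 1 to 4 and -0.13, -0.08, -0.09 and -0.23 in IR 1 to 4, so that no IR library reached a Sham library. In summed level the family changed little, from 5130 to 5300 CPM in Sham to 4800 to 5020 CPM in IR. The family's median was -0.68 below 0 log2 CPM, -0.53 between 0 and 2, -0.29 between 2 and 4, -0.16 between 4 and 6, and 0.03 above 6, where none of 10 was called.

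Without Sham 2, 3 or 4 or IR 1 or 4 the number of lowered Zfp genes went to 36, 26, 30, 35 and 26, and without both IR 1 and 4 to 6, while the family's median was -0.25 without that pair and all 55 kept a negative log2 fold change in each fit. Without IR 2 and 3 the number was 23. By chromosome, 16 of the 86 tested members on chromosome 7 were lowered, 10 of 36 on chromosome 13, 6 of 45 on chromosome 17 and 4 of 19 on chromosome 4. Nearby members often resemble each other: 15 of the 55 are uncertain by the 25% rule, among them Zfp979 and Zfp992, the pair with the smallest p. Zfp979 stood at 13, 18.2, 22.1 and 14.4 CPM in Sham and 7.18, 8.1, 5.43 and 6.96 CPM in IR (log2 fold change -1.29 ± 0.17, adjusted p = 0.000381, 32.4% of words shared). Among members that are not uncertain, Zfp324 stood at 4.48, 3.66, 3.86 and 3.56 CPM in Sham and 1.35, 2.01, 1.85 and 1.87 CPM in IR (log2 fold change -1.13 ± 0.21, adjusted p = 0.00478). Zfp759 stood at 7.74, 6.99, 9.83 and 8.39 CPM in Sham and 3.63, 4.91, 5.15 and 3.63 CPM in IR (log2 fold change -0.93 ± 0.16, adjusted p = 0.0031). In these 3 genes every IR library lay below every Sham library. Zfp324 lies at chr7:12965838-12974236 and Zfp759 at chr13:67128228-67141787 (GRCm38), on the 2 of these chromosomes with the most lowered members. Zfp667 (-0.99 ± 0.18) and Zfp606 (-0.86 ± 0.17) also kept their calls when any 1 library was left out, and Zfp606 without IR 1 and 4 too. Zfp324, Zfp759, Zfp667 and Zfp606 were chosen after their values were seen, as examples without shared sequence.

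**Figure D3:**
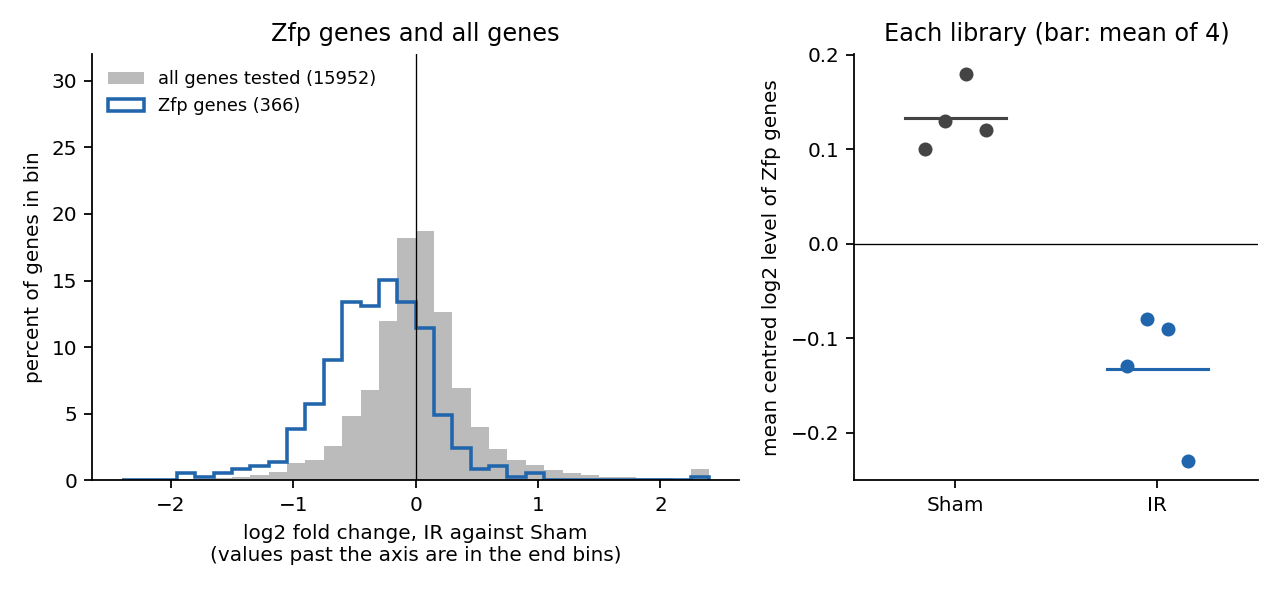
Left, the distribution of log2 fold changes in IR against Sham for the 366 Zfp genes (blue outline) and all 15952 genes tested (grey), as percent of genes per bin. Right, the mean centred log2 level of the Zfp genes in each library, with the mean of 4 as a bar; the 4 IR libraries lie between -0.23 and -0.08 and the 4 Sham libraries between 0.10 and 0.18.

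The 250 bases before the annotated start of these 3 genes are shown as examples of the promoters of lowered zinc finger genes, on the sense strand from RefSeq (GRCm38.p6), at chr4:147642509-147642758 (minus strand), chr7:12965588-12965837 (plus strand) and chr13:67127978-67128227 (plus strand). Capitals mark matches, on either strand, to 5 motifs: the kappa B site, the letters TGACG of the cyclic AMP response element, TGANTCA of AP-1, the letters TTC and GAA with any 3 bases between them, a STAT site, and the GC box GGGCGG. Of 27025 promoters of this length, 3.75% hold a kappa B match, 17.9% TGACG, 6.87% TGANTCA, 7.18% the STAT site and 32.9% GGGCGG.
Zfp979: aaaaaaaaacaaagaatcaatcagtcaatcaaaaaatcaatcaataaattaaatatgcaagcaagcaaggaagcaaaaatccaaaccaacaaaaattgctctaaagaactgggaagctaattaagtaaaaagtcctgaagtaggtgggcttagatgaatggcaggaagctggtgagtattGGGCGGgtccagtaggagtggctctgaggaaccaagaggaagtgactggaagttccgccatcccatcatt
Zfp324: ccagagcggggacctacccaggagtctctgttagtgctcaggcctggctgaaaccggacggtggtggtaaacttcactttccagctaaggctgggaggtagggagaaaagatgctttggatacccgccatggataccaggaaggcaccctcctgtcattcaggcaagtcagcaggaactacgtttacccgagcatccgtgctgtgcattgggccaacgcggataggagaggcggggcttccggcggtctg
Zfp759: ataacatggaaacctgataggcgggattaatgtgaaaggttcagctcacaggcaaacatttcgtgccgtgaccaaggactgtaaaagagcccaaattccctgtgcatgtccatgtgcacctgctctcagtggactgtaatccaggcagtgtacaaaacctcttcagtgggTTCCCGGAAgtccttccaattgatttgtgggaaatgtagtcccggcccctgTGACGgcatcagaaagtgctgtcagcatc
Zfp979 has 1 GC box, Zfp759 has 1 STAT site and 1 TGACG, and Zfp324 has no match in this window. No comparison of motif shares between sets of genes is given, because promoters were matched for only 73.9% of the genes tested.

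Endothelial genes moved in both directions. The lists here and below were drawn up with earlier results of these data known. Their shares beside those of all genes are therefore descriptive and not a separate test. Of 31 tested receptors and vasoactive genes 6 were lowered, Aplnr among them, and 6 raised (19.4% each, against 3.17% and 4.58% of all genes). Their median log2 fold change was 0.07. Edn1, which encodes the vasoconstrictor endothelin 1, stood at 3.66, 3.11, 2.92 and 3.77 CPM in Sham and 1.61, 2.16, 1.61 and 1.09 CPM in IR (log2 fold change -1.06 ± 0.23, adjusted p = 0.0108). Kdr, the main receptor for vascular endothelial growth factor, stood at 125, 170.0, 189 and 138 CPM in Sham and 97.5, 107, 82.3 and 74.6 CPM in IR (log2 fold change -0.78 ± 0.19, adjusted p = 0.0323). Tek, the angiopoietin receptor TIE2, stood at 65.4, 70.1, 66 and 62.1 CPM in Sham and 42.4, 55.1, 52.7 and 42.4 CPM in IR (log2 fold change -0.45 ± 0.11, adjusted p = 0.0221). All 3 were lower in each IR library than in any Sham library. Nrp1, a co-receptor of Kdr, had a log2 fold change of -0.59 ± 0.14, and Adora2a, an adenosine receptor, of -0.97 ± 0.27. The call of Edn1 held with any 1 library left out; that of Kdr ended without Sham 2, 3 or 4 or IR 1, 3 or 4, of Tek without Sham 2 or 3 or IR 1 or 4, of Nrp1 without Sham 2 or 3 or IR 3 and of Adora2a without Sham 1 or 2 or IR 1, 3 or 4. The number lowered went to 1 without Sham 2 and to 2 without Sham 3 or IR 1, 3 or 4, and was 0 without both IR 1 and 4, where 3 of the list were raised.

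The 6 raised genes of the same list were receptors for nucleotides, endothelin, thrombin, prostaglandin, sphingosine phosphate and the growth factor VEGF. P2ry2, a receptor for extracellular ATP and UTP, stood at 11, 7.03, 8.75 and 9.58 CPM in Sham and 24.9, 21.6, 20.2 and 27.1 CPM in IR (log2 fold change 1.37 ± 0.18, adjusted p = 0.000524). Ednrb, the endothelin receptor B, stood at 17.2, 12.2, 11.5 and 11.9 CPM in Sham and 35.9, 26.5, 28.6 and 31.7 CPM in IR (log2 fold change 1.22 ± 0.19, adjusted p = 0.00227). F2r, the thrombin receptor PAR1, stood at 24.3, 23.6, 27.6 and 23.3 CPM in Sham and 44.9, 43.6, 35 and 45.5 CPM in IR (log2 fold change 0.77 ± 0.12, adjusted p = 0.0017). These 3 had no overlap between groups and were still called without IR 1 and 4. The sphingosine phosphate receptor S1pr1 (1.36 ± 0.24) and the prostaglandin receptor Ptger4 (0.94 ± 0.21) also kept their calls when any 1 library was left out. Flt1, a second VEGF receptor that binds the ligand without strong signalling, stood at 150.0, 122, 104 and 149 CPM in Sham and 219, 182, 198 and 196 CPM in IR (log2 fold change 0.60 ± 0.15, adjusted p = 0.0292), opposite in direction to Kdr, and its call ended without Sham 2 or 3 or IR 1, 3 or 4. Flt1, S1pr1, Ptger4 and Adora2a were chosen after their values were seen.

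Of 25 endothelial transcription factors 3 were lowered and 2 raised (12% and 8%, against 3.17% and 4.58% of all genes). None of these 5 was called without both IR 1 and 4. Nr2f2, a nuclear receptor of venous identity, had a log2 fold change of -0.66 ± 0.14 (adjusted p = 0.00959), Ets1 one of -0.58 ± 0.13 (adjusted p = 0.0138), and Sox18 one of -1.04 ± 0.28, the last lost without Sham 1, 3 or 4 or IR 1, 2 or 4. Sox17, a factor of arterial identity, rose by 1.14 ± 0.25 (adjusted p = 0.0109) and Klf4, a flow-responsive factor, by 1.19 ± 0.25 (adjusted p = 0.0135), all on the log2 scale. Of the 12 markers used for endothelial cells in general, Kdr and Tek were lowered and the adhesion gene Esam raised (0.72 ± 0.14). That is 16.7% lowered and 8.33% raised, against 3.17% and 4.58% of all genes. The summed level of these 12 was 616 to 658 CPM in Sham and 549 to 611 CPM in IR, and none was at 0. Pecam1 (0.05 ± 0.09) and Cdh5 (0.04 ± 0.08), 2 junction proteins that define the cell type, did not pass the test; they were chosen after their values were seen. Without IR 1 and 4, 0 of the 12 were called by edgeR.

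Notch and Wnt genes were called at shares of 4% and 5.71% in each direction, against 4.58% raised and 3.17% lowered over all genes. Jag1, a Notch ligand, stood at 9.73, 8.44, 10.3 and 12.4 CPM in Sham and 3.92, 6.57, 6.52 and 6.25 CPM in IR (log2 fold change -0.81 ± 0.18, adjusted p = 0.0123), below Sham in each IR library, and was the only one lowered of 25 Notch genes (2 were without IR 3 or ML264 2), whose median was -0.20. Maml1, a Notch co-activator, had a log2 fold change of 0.52 ± 0.14, and its call ended without Sham 2 or 3 or IR 1 or 4. Of 35 Wnt genes, 2 were lowered (Tnfrsf19, above, and the feedback gene Axin2, -1.44 ± 0.41) and 2 raised (the ligand Wnt11, 1.34 ± 0.36, and the receptor Fzd4, 0.54 ± 0.15). Axin2 lost its call without Sham 1, 2, 3 or 4 or IR 1, 3 or 4 or ML264 4, Wnt11 without Sham 1, 2, 3 or 4 or IR 1, 2 or 4 and Fzd4 without Sham 2 or 3 or IR 1, 2 or 3 or ML264 1 or 4. In the BMP list 3 of 23 were raised (13%) and 1 lowered (4.35%). Smad1 rose (log2 fold change 0.97 ± 0.14, adjusted p = 0.00085). Its close relative Smad5 had a log2 fold change of -0.34 ± 0.09 and lost its call without Sham 1, 2 or 3 or IR 3 or 4. The other 2 raised members, the inhibitory Smad6 (1.12 ± 0.30) and the activin subunit Inhbb (2.02 ± 0.56), lost theirs without Sham 2, 3 or 4 or IR 1, 3 or 4, and without Sham 1, 2 or 4 or IR 1, 3 or 4, respectively. Without both IR 1 and 4, edgeR called 0 Notch and 0 Wnt genes, and 1 BMP gene, which was raised.

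Of 14 macrophage and monocyte markers 2 were lowered (14.3%, against 3.17% of all genes). Cx3cr1, the fractalkine receptor of resident cells, stood at 2.85, 3.98, 5.97 and 3.63 CPM in Sham and 1.83, 1.77, 1.85 and 1.76 CPM in IR (log2 fold change -1.19 ± 0.26, adjusted p = 0.0108) and Adgre1, which encodes F4/80, at 5.93, 6.92, 8.09 and 7.89 CPM in Sham and 4.32, 5.07, 5.23 and 3.44 CPM in IR (log2 fold change -0.68 ± 0.16, adjusted p = 0.0174). Cx3cr1 lay between 1.76 and 1.85 CPM in the IR libraries, below each Sham library. The call of Adgre1 ended without Sham 3 or 4 or IR 4, and neither gene was called without both IR 1 and 4. The 14 markers summed to 117 to 212 CPM in Sham and 151 to 179 CPM in IR, with none at 0 and a median log2 fold change of -0.05. Pdgfrb, the platelet-derived growth factor receptor of pericytes and smooth muscle, fell (log2 fold change -0.44 ± 0.09, adjusted p = 0.00631). It was the only one called of 12 markers of these cells, none of which was called without both IR 1 and 4, whose sum was 1860 to 1970 CPM in Sham and 1800 to 2030 CPM in IR.

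Genes of cilia and centrosomes were lowered in 4 of 52 cases (7.69%, against 3.17% of all genes) and raised in 0 by edgeR. Their median log2 fold change was -0.21. At an unadjusted p under 0.05, 14 were lower and 3 higher, DESeq2 called 7 lowered and 1 raised, and limma-voom 3 and 0. Cep162, a centriolar protein needed for the ciliary transition zone, stood at 27.5, 27, 26 and 24.6 CPM in Sham and 17.7, 18.8, 20.3 and 17 CPM in IR (log2 fold change -0.51 ± 0.09, adjusted p = 0.00426), with no overlap. Ift46 (-0.53 ± 0.14), a subunit of intraflagellar transport, Cep164 (-0.56 ± 0.16), a distal appendage protein of the centriole, and Cep250 (-0.51 ± 0.14), a centrosome linker chosen after its values were seen, did not hold as well. Ift46 lost its call without Sham 1, 2 or 3 or IR 1 or 3, Cep164 without Sham 1, 3 or 4 or IR 1, 2, 3 or 4 and Cep250 without Sham 1, 2, 3 or 4 or IR 1, 2 or 4. The number lowered ranged from 1 to 6 with 1 library left out and was 2 without Sham 1, 2 or 4 or IR 2 or 4, 1 without Sham 3 or IR 1, and 0 without both IR 1 and 4.

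Enzymes of histone methylation were split, with 4 lowered and 5 raised of 52 (7.69% and 9.62%, against 3.17% and 4.58% of all genes). Kdm5b, a demethylase of histone H3 lysine 4, stood at 25.6, 23.8, 24 and 23.7 CPM in Sham and 15.8, 15.4, 19.8 and 17.3 CPM in IR (log2 fold change -0.51 ± 0.10, adjusted p = 0.00641). Kmt5c, a methyltransferase of histone H4 lysine 20, had a log2 fold change of -0.98 ± 0.21 (adjusted p = 0.0108), and its relative Kmt5b of -0.33 ± 0.08. The fourth was Setd1b (-0.56 ± 0.15), which was chosen after its values were seen. In the other direction Kdm6b, a demethylase of histone H3 lysine 27 known as an early response gene, stood at 11.9, 11.1, 11 and 11.6 CPM in Sham and 25.8, 40.3, 31.1 and 48.4 CPM in IR (log2 fold change 1.67 ± 0.30, adjusted p = 0.0105). Kdm5b and Kdm6b had no overlap between groups. The calls of Kdm5b, Kmt5c and Kdm6b held with any 1 library left out, whereas that of Kmt5b ended without Sham 2, 3 or 4 or IR 2 or 4 and that of Setd1b without Sham 2, 3 or 4 or IR 1, 2 or 4. The raised count of the list went to 1 without Sham 2 or 3, to 3 without Sham 4 or IR 1 and to 2 without IR 4, and the lowered count to 2 without Sham 2, 3 or 4 or IR 2 or 4. Without both IR 1 and 4, 1 was raised and 0 lowered.

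Lowered signalling genes included kinases, a phosphatase and parts of the ubiquitin system. Map3k1, which activates the JNK cascade, stood at 29.5, 35.3, 32.1 and 32 CPM in Sham and 20.1, 24.5, 21.1 and 21.9 CPM in IR (log2 fold change -0.56 ± 0.11, adjusted p = 0.00595), with every IR library under every Sham library. Map3k10, another upstream kinase of JNK, had a log2 fold change of -1.01 ± 0.27 and lost its call without Sham 1, 2, 3 or 4 or IR 1 or 4. Of 54 MAP kinase genes these 2 were lowered (3.7%, against 3.17% of all genes) and 6 raised (11.1%, against 4.58%), and without both IR 1 and 4 0 and 2 were. Map3k8 (1.27 ± 0.24) and Mapk6 (0.59 ± 0.11) kept their calls with any 1 library left out, and the raised count went to 2 without Sham 2 or IR 2 and to 3 without Sham 3 or 4 or IR 4. Eef2k, the kinase that slows translation elongation, had a log2 fold change of -0.46 ± 0.11 and lost its call without Sham 3 or 4. Dusp22, a phosphatase of the JNK pathway, had one of -0.95 ± 0.24 and lost its call without Sham 3 or 4 or IR 2 or 3. Pde4a, a phosphodiesterase that hydrolyses cyclic AMP, was lowered (log2 fold change -0.46 ± 0.11, adjusted p = 0.0143), and its relative Pde4b was raised (log2 fold change 1.36 ± 0.28, adjusted p = 0.0181), the latter not without Sham 2 or 3. In their list of 32 genes, 2 were lowered and 2 raised (6.25% each, against 3.17% and 4.58% of all genes). Without both IR 1 and 4, 0 were lowered and 1 raised. Usp20, a deubiquitinase, was lowered (log2 fold change -0.71 ± 0.16, adjusted p = 0.0139). It was 1 of 2 lowered among 49 Usp genes (4.08%, against 3.17% of all genes). The count was 0 without both IR 1 and 4 and with the Y-linked covariate.

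Tripartite motif genes, many of which are ubiquitin ligases, were lowered in 5 of 50 cases (10%, against 3.17% of all genes) and raised in 1, and in 0 cases each without both IR 1 and 4. Trim3 had the smallest adjusted p of those without shared sequence (log2 fold change -0.67 ± 0.14, adjusted p = 0.0087), while Trim34a and Trim43c are uncertain, with 68.5 and 71.8% of words shared. The lowered count was 3 without Sham 2, 3 or 4 or IR 3 or 4. Of 32 kelch-like genes, which serve as adaptors of cullin ligases, 3 were lowered (9.38%) and 1 raised, and none without both IR 1 and 4. None of the 4 kept its call under all leave-outs of a single library: Klhl5 (-0.55 ± 0.14) lost it without Sham 2, 3 or 4 or IR 1, 2 or 4, Klhl18 (-0.58 ± 0.16) without Sham 2, 3 or 4 or IR 1, 2, 3 or 4, Klhl20 (-0.49 ± 0.13) without Sham 1 or 4 or IR 1, 2, 3 or 4 and Klhl29 (1.57 ± 0.46) without Sham 1, 2 or 3 or IR 1, 3 or 4 or ML264 1 or 4. Zbtb genes, another zinc finger family of transcriptional regulators, were lowered in 4 and raised in 4 of 38 (10.5% each), and without both IR 1 and 4 in 0 and 3. Zbtb46 (-0.47 ± 0.11), a factor of dendritic and endothelial cells, was the one lowered member that held with any 1 library left out, and Zbtb10 (0.64 ± 0.10), Zbtb21 (0.92 ± 0.14) and Zbtb2 (0.94 ± 0.18) were raised members that held as well. The lowered count of this family was 1 without Sham 2 or 4 or IR 1 or 2, and 2 without Sham 3, IR 4 or ML264 4.

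Among 278 solute carriers 13 were lowered (4.68%, against 3.17% of all genes) and 15 raised (5.4%, against 4.58%). Without both IR 1 and 4, 0 were lowered and 8 raised. They include Slc25a20, the mitochondrial carnitine carrier (-0.32 ± 0.09, lost without Sham 1, 3 or 4 or IR 1, 2 or 4), and Slc38a3, a glutamine transporter (-0.58 ± 0.15, lost without Sham 1, 3 or 4 or IR 3 or 4). The lowered count went to 8, 7, 4 and 5 without Sham 1, 2, 3 and 4, to 7 without IR 2 and to 4 without IR 4. Among lysosomal genes 3 of 36 were lowered (8.33%, against 3.17% of all genes) and 2 raised (5.56%, against 4.58%). Their median log2 fold change was -0.01. The raised members were Lamp2 and the proton pump subunit Atp6v1h, described below. The raised count ranged from 1 to 2 with 1 library left out and was 1 without both IR 1 and 4. Atp6v0a1, another proton pump subunit, was among the lowered (-0.29 ± 0.08). Its call ended without Sham 2, 3 or 4 or IR 1, 2, 3 or 4. The lowered count of the list went to 0 without Sham 3 or 4 or IR 2 or 3, to 1 without Sham 2 or IR 4, and was 2 without both IR 1 and 4. Kcnn2, a calcium-activated potassium channel subunit, had a log2 fold change of -0.71 ± 0.17 and lost its call without Sham 4 or IR 4. Nr1h3, the liver X receptor alpha, had one of -1.19 ± 0.32 and lost its call without Sham 1, 2, 3 or 4 or IR 1, 2 or 4.

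**Figure D4:**
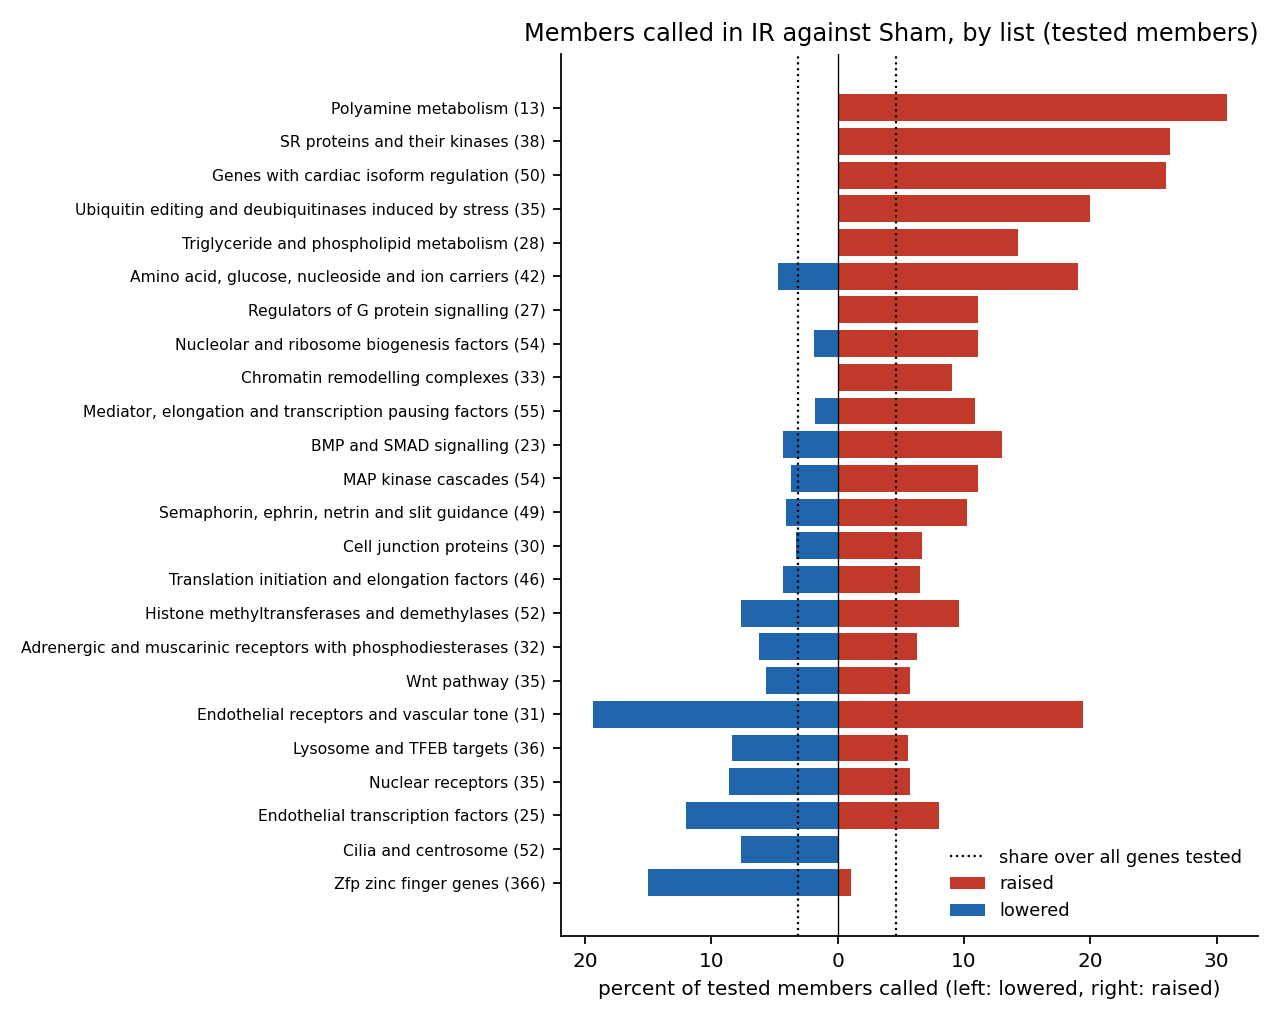
Percent of the tested members called raised (red, to the right) or lowered (blue, to the left) in IR for each pathway list with at least 3 calls and for the Zfp family, with the number tested in brackets; lists of cell type markers are not drawn. The dotted lines mark the shares over all genes tested, 4.58% raised and 3.17% lowered. Of the lists drawn, endothelial receptor and Zfp genes extend farthest to the left. Polyamine genes, SR proteins listed with other splicing regulators, and cardiac isoform genes extend farthest to the right. The lists were drawn up with earlier results of these data known.

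Among raised genes the smallest p values belonged to genes whose changes were moderate. Atp6v1h, part of the proton pump that acidifies lysosomes, stood at 16, 15.9, 17 and 14.6 CPM in Sham and 31.3, 34.2, 29.6 and 32.8 CPM in IR (log2 fold change 1.01 ± 0.09, adjusted p = 2.91e-05). Ppp1r15a, which encodes GADD34, the subunit that directs dephosphorylation of initiation factor eIF2 alpha, stood at 5.65, 3.73, 4.27 and 4.86 CPM in Sham and 10.8, 16.3, 15.5 and 16 CPM in IR (log2 fold change 1.66 ± 0.15, adjusted p = 4.03e-05). Pqlc1, a membrane protein with PQ loops, stood at 11.7, 14.5, 13.7 and 14.1 CPM in Sham and 26.1, 25.4, 27 and 30 CPM in IR (log2 fold change 1.00 ± 0.10, adjusted p = 6.44e-05). Each IR library of these 3 exceeded each Sham library, as the naming rule required, and IR 1 was the lowest of the IR libraries for Ppp1r15a. Arl5b, a small GTPase of the Golgi, stood at 42, 35.9, 37 and 42 CPM in Sham and 68, 74.4, 71.9 and 66.9 CPM in IR (log2 fold change 0.84 ± 0.09, adjusted p = 6.58e-05), and Ilf2, an RNA-binding nuclear factor, at 35.6, 34.8, 32.4 and 36.7 CPM in Sham and 54.3, 59, 62.4 and 57.4 CPM in IR (log2 fold change 0.74 ± 0.08, adjusted p = 0.000158). Larger changes were found in Gem, a GTPase that inhibits voltage-gated calcium channels, at 1.9, 1.01, 0.764 and 1.55 CPM in Sham and 7.76, 7.55, 10.7 and 9.25 CPM in IR (log2 fold change 2.76 ± 0.28, adjusted p = 9.58e-05). Eid3, a component of the SMC5/6 complex, stood at 0.86, 0.869, 0.868 and 1.16 CPM in Sham and 6.15, 5.31, 4.95 and 10 CPM in IR (log2 fold change 2.80 ± 0.28, adjusted p = 6.58e-05), with IR 4 above the other 3. The calls of these 7 genes held in each fit with 1 library left out and without IR 1 and 4.

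Il6, Cxcl2 and Socs3 were among the 12 raised genes with the largest change that the naming rule gives. Il6, the interleukin whose receptor signals through STAT3, had 2 counts over the 4 Sham libraries and 689 over the 4 IR libraries, or 4.87, 5.94, 5.47 and 10.1 CPM in IR 1 to 4 (adjusted p = 0.00546); all Sham values lie under 3 counts. Cxcl2, a chemokine that attracts neutrophils, stood at 1.13, 0.0362, 0.0695 and 0.352 CPM in Sham and 7.14, 14.5, 22.5 and 9.88 CPM in IR (log2 fold change 5.19 ± 0.85, adjusted p = 0.00831). Socs3, the feedback inhibitor of the Il6 receptor, stood at 0.905, 0.652, 1.08 and 0.176 CPM in Sham and 4.36, 14.8, 8.89 and 40.9 CPM in IR (log2 fold change 4.62 ± 1.03, adjusted p = 0.0281), and its call ended without Sham 1, 2, 3 or 4 or IR 4. IR 4 had the highest and IR 1 the lowest Socs3 level of the IR libraries. Their promoters and that of Ppp1r15a are shown because the 4 genes were all raised and are targets of well-known inducible factors. The sequences are the 250 bases before the start on the sense strand (RefSeq, GRCm38.p6), at chr5:30012864-30013113 and chr5:90903649-90903898 on the plus strand and chr11:117969367-117969616 and chr7:45526269-45526518 on the minus strand, with capitals for the same 5 motifs.
Il6: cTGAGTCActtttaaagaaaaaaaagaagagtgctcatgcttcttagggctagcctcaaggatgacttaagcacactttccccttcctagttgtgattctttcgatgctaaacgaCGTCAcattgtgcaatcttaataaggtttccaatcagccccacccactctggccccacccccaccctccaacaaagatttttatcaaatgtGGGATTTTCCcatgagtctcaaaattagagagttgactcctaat
Cxcl2: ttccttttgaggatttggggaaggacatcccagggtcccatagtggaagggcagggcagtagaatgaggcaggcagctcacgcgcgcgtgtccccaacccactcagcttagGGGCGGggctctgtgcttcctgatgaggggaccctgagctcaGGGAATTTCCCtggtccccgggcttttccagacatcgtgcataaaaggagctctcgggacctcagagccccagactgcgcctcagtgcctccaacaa
Socs3: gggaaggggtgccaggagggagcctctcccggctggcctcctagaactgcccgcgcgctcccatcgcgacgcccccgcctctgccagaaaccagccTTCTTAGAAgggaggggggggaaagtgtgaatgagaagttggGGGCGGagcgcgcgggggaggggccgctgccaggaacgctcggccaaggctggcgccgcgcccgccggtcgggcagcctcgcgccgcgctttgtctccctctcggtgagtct
Ppp1r15a: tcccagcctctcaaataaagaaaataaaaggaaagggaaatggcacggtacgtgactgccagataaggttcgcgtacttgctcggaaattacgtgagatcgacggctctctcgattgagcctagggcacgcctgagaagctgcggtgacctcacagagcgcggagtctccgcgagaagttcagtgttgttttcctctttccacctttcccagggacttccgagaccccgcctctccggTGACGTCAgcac
Il6 has 1 kappa B match, 1 TGACG read on the opposite strand and 1 TGANTCA. Cxcl2 has 2 kappa B matches, which overlap on the 2 strands, and 1 GC box. Socs3 has 1 STAT site and 1 GC box, and Ppp1r15a has 2 matches to TGACG that overlap in 1 full palindrome. A match describes letters in the window and says nothing on its own about binding in these hearts.

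Polyamine genes were raised in 4 of 13 cases (30.8%, against 4.58% of all genes) and lowered in 0 by edgeR, DESeq2 and limma-voom alike. At an unadjusted p under 0.05, 6 were higher and 0 lower, and the median log2 fold change was 0.31. Azin1, which shields ornithine decarboxylase from its antizyme, stood at 58.4, 47.1, 46.5 and 57.2 CPM in Sham and 79, 88.9, 88.9 and 113 CPM in IR (log2 fold change 0.82 ± 0.11, adjusted p = 0.000519). Slc3a2, the heavy chain shared by several amino acid transporters, rose (log2 fold change 0.65 ± 0.13, adjusted p = 0.0068). Slc3a2 is counted again among the raised carriers below. Sat1, the rate-limiting enzyme of polyamine breakdown, stood at 12.9, 6.23, 7.89 and 7.79 CPM in Sham and 12, 37.2, 28.6 and 66.2 CPM in IR (log2 fold change 2.05 ± 0.47, adjusted p = 0.0288). For Sat1, IR 1 lay within the Sham range and the other 3 IR libraries far above it. The call of Sat1 ended without Sham 2, 3 or 4 or IR 2 or 4; the fourth gene, Odc1, is uncertain (31.3% of words shared), was chosen after its values were seen and lost its call without Sham 2, 3 or 4 or IR 2 or 4, so that the count was 2 without Sham 2, 3 or 4 or IR 2 or 4; it was 3 without both IR 1 and 4.

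Of 38 genes listed as SR proteins, their kinases and other splicing regulators, 10 were raised (26.3%, against 4.58% of all genes) and 0 lowered by edgeR. Mbnl2, Ptbp2 and Rbm24, which are not SR proteins, were among the 10. At an unadjusted p under 0.05, 13 were higher and 1 lower, and the median was 0.13. DESeq2 called 11 raised and 1 lowered, and limma-voom 10 and 0. Tra2b, a splicing activator, stood at 29.4, 24.8, 27.7 and 33.4 CPM in Sham and 41.6, 46.9, 43.8 and 49.9 CPM in IR (log2 fold change 0.66 ± 0.10, adjusted p = 0.00085). Rbm25 (log2 fold change 0.43 ± 0.07, adjusted p = 0.00127) and Rbm39 (log2 fold change 0.51 ± 0.08, adjusted p = 0.00156), 2 splicing co-factors, had smaller changes. Without Sham 4 the list's count was 6, and without both IR 1 and 4 it was 3. Of 55 genes of Mediator, elongation and pausing 6 were raised (10.9%, against 4.58% of all genes), and Ccnt2, described above, was lowered. Ccnl1, a cyclin tied to splicing speckles, stood at 32.3, 22.6, 21.6 and 21.9 CPM in Sham and 41.1, 69.7, 54.7 and 81.5 CPM in IR (log2 fold change 1.33 ± 0.19, adjusted p = 0.0027). Aff4 (0.53 ± 0.10) and Ell2 (0.98 ± 0.19), subunits of the super elongation complex that contains P-TEFb, rose as well, in the direction opposite to Ccnt2. Ccnt1, the close relative of Ccnt2, was also among the raised members and was chosen after its values were seen. The raised count of this list was 3 without Sham 2 or 3 or IR 3 or 4, and 2 without both IR 1 and 4.

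Nucleolar and ribosome biogenesis factors were raised in 6 of 54 cases (11.1%, against 4.58% of all genes). Utp14a (0.56 ± 0.10), of the small subunit processome, and Nop58 (0.56 ± 0.13), a core protein of box C/D ribonucleoproteins, kept their calls with any 1 library left out. The count was 2 without Sham 2, 3 or 4 or IR 4, and the 1 lowered member, Tsr1 (-0.60 ± 0.14), is uncertain and lost its call without Sham 2. Without both IR 1 and 4, 1 was raised and 0 lowered. The 54 had a median of 0.12.

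Of 50 genes known for cardiac isoform regulation, 13 were raised (26%, against 4.58% of all genes) and 0 lowered by edgeR. The list mixes sarcomere and Z-disc genes with others such as Ppargc1a. At an unadjusted p under 0.05, 20 were higher and 3 lower, and the median log2 fold change was 0.15. DESeq2 called 14 raised and 1 lowered, and limma-voom 13 and 0. Nexn, an actin-binding protein of the Z-disc, stood at 487, 396, 384 and 377 CPM in Sham and 594, 604, 588 and 581 CPM in IR (log2 fold change 0.53 ± 0.08, adjusted p = 0.0017). The 4 IR libraries of Nexn agreed closely, above each Sham library. Actn2 (log2 fold change 0.40 ± 0.08, adjusted p = 0.00595), the Z-disc alpha-actinin, rose, and so did Trdn (log2 fold change 0.38 ± 0.07, adjusted p = 0.00641), the triadin of the calcium release unit, which was chosen after its values were seen. The count of raised genes was 6 without Sham 3 or 4, 8 without IR 4 and 3 without both IR 1 and 4. Gata6, a cardiac transcription factor, rose (log2 fold change 0.76 ± 0.16, adjusted p = 0.0091). It was 1 of 2 raised among 22 such factors (9.09%, against 4.58% of all genes). The count was 1 without Sham 1, 3 or 4 or IR 1 or 3. It was 0 without both IR 1 and 4 and with the Y-linked covariate. Ppargc1a, the co-activator of mitochondrial biogenesis, stood at 302, 241, 194 and 243 CPM in Sham and 1130.0, 508, 430.0 and 641 CPM in IR (log2 fold change 1.47 ± 0.34, adjusted p = 0.0311), with IR 1 highest; it was chosen after its values were seen, and its call ended without Sham 2, 3 or 4 or IR 4.

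Of 42 carriers 8 were raised and 2 lowered (19% and 4.76%, against 4.58% and 3.17% of all genes). The lowered count was 0 without Sham 1, 3 or 4 and 1 with any 1 IR library left out. Without both IR 1 and 4, 5 were raised and 0 lowered. Slc7a1, the cationic amino acid transporter CAT1, stood at 39.4, 29.1, 36.4 and 40.4 CPM in Sham and 80.5, 65.1, 85.5 and 67.2 CPM in IR (log2 fold change 1.04 ± 0.12, adjusted p = 0.000347). Slc20a1, a phosphate carrier, rose by 1.12 ± 0.15 and Slc25a33, a mitochondrial pyrimidine nucleotide carrier, by 1.97 ± 0.25 on the log2 scale. All 3 were called with any 1 library left out and without IR 1 and 4. Of 35 genes listed for ubiquitin editing and induction by stress, 7 were raised (20%, against 4.58% of all genes) and 0 lowered by edgeR. Socs3, described above, and Zfand5 were among the 7 and are not ubiquitin enzymes. Because members were listed as induced by stress, their raised share is not a separate test of a stress response. At an unadjusted p under 0.05, 16 were higher and 1 lower, and the median was 0.25. DESeq2 called 13 raised and 0 lowered, and limma-voom 7 and 0. Among them Rnf125 (log2 fold change 1.93 ± 0.30, adjusted p = 0.00269) and Tnfaip3 (log2 fold change 2.46 ± 0.43, adjusted p = 0.00936), the A20 enzyme that curbs NF-kappa B, held with any 1 library left out, and the count was 4 without Sham 2 or 3 or IR 4 and without both IR 1 and 4. Irs2, the insulin receptor substrate, stood at 12.8, 6.99, 4.9 and 9.09 CPM in Sham and 66.9, 52.7, 53.7 and 123 CPM in IR (log2 fold change 3.14 ± 0.47, adjusted p = 0.00595). IR 4 was highest and every IR library exceeded the highest Sham library several times over. Arrdc3, an alpha-arrestin of beta-adrenergic receptor trafficking, stood at 28.3, 21.1, 18.6 and 24.3 CPM in Sham and 37.4, 58.3, 57.8 and 51.3 CPM in IR (log2 fold change 1.15 ± 0.15, adjusted p = 0.000529).

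Markers of other cells that could reach the heart were looked at beside these changes. Of 12 neutrophil markers 9 were tested and 4 raised (Clec4e, Trem1, Clec4d and Mmp9), 44.4% against 4.58% of all genes. The 12 summed to 5.85 to 8.23 CPM in Sham and 11.1 to 28.6 CPM in IR, with none at 0 in all 8 libraries. The number raised was 2 without Sham 1, 3 or 4 and 1 without Sham 2 or IR 4. It was 0 by edgeR without both IR 1 and 4, without IR 2 and 3, and with either the Y-linked level or Arntl as a covariate. Platelet markers summed to 11.6 to 35.1 CPM in Sham and 17.1 to 193 CPM in IR, with 0 of 6 tested called by edgeR and limma-voom, 1 by DESeq2 and 1 at an unadjusted p under 0.05. Epicardial markers summed to 4.26 to 7.47 CPM in Sham and 9.96 to 17.8 CPM in IR. Of 7 listed, 4 were tested and 1 was raised (25%, against 4.58% of all genes). Of the 4, 2 had a log2 fold change above 0 and 2 below. Their median was 0.35, and -0.03 without both IR 1 and 4. The raised marker was Wt1, the epicardial transcription factor. Wt1 stood at 4.16, 2.32, 2.5 and 2.82 CPM in Sham and 7.51, 10.4, 9.81 and 11.9 CPM in IR (log2 fold change 1.75 ± 0.35, adjusted p = 0.0122), higher in every IR library. It was not called without both IR 1 and 4. Fibroblast markers summed to 531 to 610 CPM in Sham and 592 to 684 CPM in IR, with 0 of 11 called by edgeR and limma-voom, 1 by DESeq2 and 4 at an unadjusted p under 0.05. Markers of T, B and NK cells summed to 25.8 to 33.8 CPM in Sham and 18.9 to 28.5 CPM in IR, with Nkg7 at 0 in all 8 libraries and 0 of 6 called by edgeR, DESeq2 or limma-voom or at an unadjusted p under 0.05. The part that these sums have in the changes above was not tested.

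Some large groups gave no call by edgeR. Of 40 genes of collagens and basement membrane (median log2 fold change -0.11), 5 were lower and 0 higher at an unadjusted p under 0.05, and DESeq2 called 2 and limma-voom 1 lowered. Of 53 DNA repair genes (median -0.11), 8 were lower and 3 higher at that level, and DESeq2 called 1 in each direction and limma-voom 1 raised. Of 38 proteasome subunits (median 0.06) 2 were higher and 0 lower, with 0 calls by DESeq2 and limma-voom, and of 46 complex I genes (median -0.04) 2 were lower and 0 higher, again with 0 calls by either. Of 79 mitochondrial ribosomal proteins (median 0.01) 5 were higher and 4 lower, and DESeq2 called 1 lowered and limma-voom 0. A missed threshold does not show that these levels were equal.

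Changes in the use of transcripts within a gene could not be read from the transcript names, because the names do not stay with the same transcript from library to library. For genes with 2 listed transcripts, 2 libraries shared the same leading Transcript_ID in 49.6% of genes (median of 66 pairs of libraries), for 3 transcripts in 33.3%, for 5 in 20.5% and for 10 in 9.52%. The genes counted had at least 100 counts in each library and a leading share over 70% in both libraries of the pair. Names drawn at random would give 50, 33.3, 20 and 10%. Within a gene with 2 transcripts the share under one name had an SD of 45.0 percentage points over libraries, and the share of the larger transcript, whatever its name, one of 2.43. In Myh6, the alpha myosin heavy chain, the bulk of the counts lay under a transcript of 6113 bases in IR 1 (334546 counts). In Sham 1, 2 and 4 and in IR 4 it lay under a transcript of 411 bases (232504, 302597, 312817 and 319438 counts). In Sham 3 it lay under a retained intron of 511 bases (264626 counts). In IR 1 the leading transcript was annotated as protein coding in 85.1% of 5560 genes and had a median length of 3622 bases; in the other 11 libraries this was 55.6 to 57.9% and 1742 to 1842 bases, near the 52.9% and 1540 bases over all transcripts of these genes. Gene totals are not touched by this, since they sum over the names. Tested by name, edgeR's diffSpliceDGE called 0 of 9947 genes (0.0%), with 1110 at an unadjusted p under 0.05, and limma's diffSplice called 46; neither count describes isoforms.

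The share of a gene's counts on its leading transcript, taken in each library as the largest, needs no name and was tested in its place. The choice was made after the names were seen to move, and which transcript leads is not known. Of 5604 genes limma called 19 (0.339%), 9 with a higher and 10 with a lower leading share in IR, and 717 (12.8%) had an unadjusted p under 0.05. In 456 genes (8.14%) the 4 IR shares did not overlap the 4 Sham shares, and every called gene was among these. On simulated shares moved by 20% the test recovered 9 of 141 changed genes, so most changes of that size would be missed. The count was 4 without Sham 4, between 7 and 10 without Sham 1, 2 or 3, IR 2, 3 or 4 or ML264 1 or 4, and 31 without ML264 2. Mfap3, a microfibril-associated membrane protein, had its leading transcript at 53.6, 66, 47.6 and 65.8% of counts in Sham and 94.3, 89.2, 95.6 and 96.8% in IR (difference 35.7 percentage points, adjusted p = 0.00538). Its gene total did not pass the test (log2 fold change -0.19 ± 0.13). The shift in Mfap3 held in every alternative fit.

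Nrap, Tpm3, Alpk2 and Sptb were among the 19. Nrap, a protein of myofibril assembly, had a leading share of 69.2, 72, 70.3 and 67.2% in Sham and 58.2, 57.7, 60.2 and 59.1% in IR (-10.9 points, adjusted p = 0.00779), without overlap. In Tpm3, a tropomyosin, the leading share was 49.5, 54, 57.3 and 55.6% in Sham and 32.1, 31.4, 34.2 and 34.6% in IR (-21 points, adjusted p = 0.00779), while the gene's total, with a log2 fold change of 0.46 ± 0.21, was not called. Tpm3 shares 27.0% of its words with other genes and is uncertain. Alpk2, a kinase of heart muscle, went from 93.2, 92.1, 93.9 and 92.2% in Sham to 89, 85.9, 87.8 and 86.8% in IR (-5.5 points, adjusted p = 0.0136). The calls of these 3 held with any 1 library left out and ended without both IR 1 and 4, and that of Alpk2 also with either covariate. None of the 3 was called by diffSpliceDGE on transcripts ordered by size (adjusted p = 0.685, 0.129 and 0.0848 for Nrap, Tpm3 and Alpk2). For the spectrin gene Sptb the share was 55.4, 54.3, 54.6 and 54.6% in Sham and 73.7, 71.7, 71.3 and 81.2% in IR (19.7 points, adjusted p = 0.0421), and its call was lost without any 1 of most libraries.

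Itpkb, Pqlc1 and Eprs were called both in total and in leading share. Itpkb, lowered in total, had its leading transcript at 81.7, 77.2, 83.2 and 82.3% in Sham and 62, 66.4, 55.3 and 61.7% in IR (-19.7 points, adjusted p = 0.0136), and the call ended without Sham 4. Pqlc1, raised in total, went from 43, 41.4, 49.2 and 44.1% to 68, 67.2, 63.8 and 69.2% (22.6 points, adjusted p = 0.0199), lost without Sham 1, 2 or 4 or IR 2 or 4. Eprs, the glutamyl-prolyl tRNA synthetase, raised in total by 0.41 ± 0.07, went from 89.8, 86.8, 87.5 and 87.1% to 76.1, 74.3, 76.8 and 81.1% (-10.7 points, adjusted p = 0.0199), lost without Sham 1, 3 or 4 or IR 2 or 3. None of these 3 had overlapping groups, as held for every gene called for its leading share. All 3 lost the call of the leading share without both IR 1 and 4, with the replicate number as a block and with the Y-linked covariate. Pqlc1 lost it with Arntl too. Of the 19 genes, 11 were also called by diffSpliceDGE on transcripts ordered by size.

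**Figure D5:**
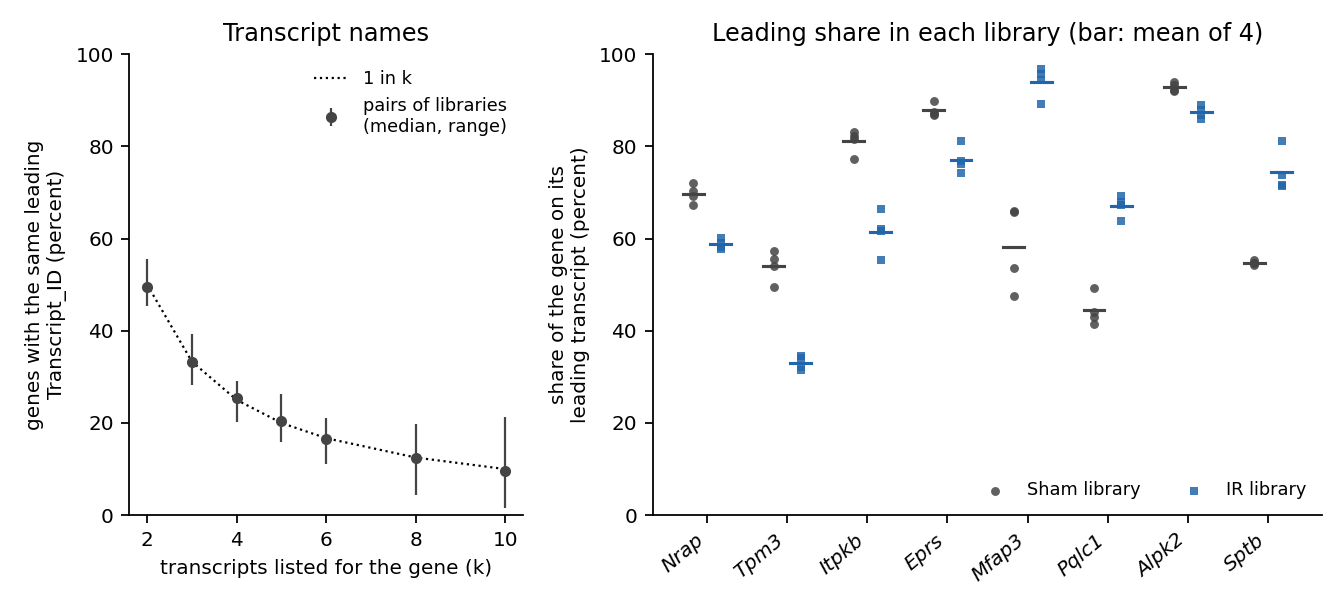
Left, percent of genes in which a pair of libraries shares the same leading Transcript_ID (y axis) by the number of transcripts listed for the gene (x axis), as the median and range over 66 pairs, with the 1 in k line of random naming. The genes counted had a leading share over 70% in both libraries of the pair. Right, share of a gene's counts on its leading transcript in each Sham library (grey circles) and IR library (blue squares). Drawn are 8 of the 19 genes called, with the mean of 4 as a bar. The groups do not overlap in any of the 8, as in every gene called, against 456 of the 5604 genes tested (8.14%).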

How the data were processed

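Libraries were made from TRIzol total RNA with Nextera XT, which marks no strand, and read as 100-base pairs, per the labels' protocols. The values are estimated counts per transcript as the authors deposited them; the submitters' processing notes name FastQC, kallisto and GRCm38, and no source used here gives versions. Counts of 104952 transcripts were summed by symbol (33615), rounded to whole numbers and tested with edgeR 4.0.16 (R 4.3.3): TMM scaling, filterByExpr with a minimum count of 10, robust quasi-likelihood fit over all 12 libraries, contrast of IR minus Sham, Benjamini-Hochberg adjustment over 15952 genes and a threshold of 0.05. CPM uses the TMM-scaled library sizes. Alternatives used DESeq2 1.42.0 and limma 3.58.1 (voom), other scalings, filters and covariates, and left out single libraries.

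Named genes were, among called genes with an average of at least 1 log2 CPM and no overlap, the 12 per direction with the smallest adjusted p, the 12 with the largest change, and up to 3 called members per direction of each list; some genes the rule names are not reported here. Members and lists were chosen with earlier results of these data known. Leading transcript shares were tested with limma over genes with at least 100 counts per library and a share not over 95%, on log2 ratios with 1 count added. Genes with over 25% of 31-base words in another gene's transcripts are called uncertain, since kallisto divides such reads between copies. On simulated counts the edgeR test recovered 24, 70, 90 and 92% of genes changed by 1.5, 2, 3 and 4-fold, with 12 false among 150 calls. No 2 replicates agreed within sampling noise (chi-square per gene 7.76 to 75.83). Transcript classes by library, planned at first, were not analysed because transcript names moved between libraries.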

Additional observations from a re-analysis of the deposited data

Results flagged for a closer look

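In 106 groups of 4 values, those of 53 genes in Sham and in IR, 8 libraries stood apart from the other 3 by Dixon's test at its 95% critical value, and chance gives about 1 in 20 groups. Of these, 3 were IR 1: Arntl at 11.1 CPM against 1.05 to 2.01 CPM, Jag1 at 3.92 CPM against 6.25 to 6.57 CPM, and Ppp1r15a at 10.8 CPM against 15.5 to 16.3 CPM. Sham 1 was above the rest for Ccnl1 (32.3 CPM against 21.6 to 22.6), Ednrb (17.2 CPM against 11.5 to 12.2) and Kdm5b (25.6 CPM against 23.7 to 24). Sham 3 was above the rest for Aplnr (57.1 CPM against 32.4 to 35.9), and Sham 4 for Eid3 (1.16 CPM against 0.86 to 0.869).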

How the results depend on the processing

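None of the 1235 called genes reversed in direction under any alternative, but upper-quartile scaling turned the balance of calls to 620 raised and 676 lowered. Of the alternatives listed at first, DESeq2 moved the lowered genes from 505 to 773 and the lowered Zfp genes from 55 to 86, and the other tests, scalings and filters kept all 4 counts within 1.5 times. With the Y-linked covariate the genes called numbered 456 (322 raised, 134 lowered, 13 Zfp lowered), with Arntl 636 (380, 256, 26), without IR 1 and 4 290 (236, 54, 6), and without IR 2 and 3, chosen after the data were seen, 567 (331, 236, 23). Leaving out 1 library gave 659 to 1485 called, 419 to 828 raised, 240 to 657 lowered and 26 to 74 Zfp lowered. With the replicate number as a block 1009 were called (622 raised, 387 lowered, 46 Zfp lowered). IR and Sham libraries with the same number did not deviate together (correlations of -0.07, 0.00, -0.01 and 0.00). These correlations cannot settle whether the numbers pair libraries. By transcript name, 0 genes became 46 by limma-voom, 10 with 8 libraries and 1 with the Y-linked covariate, and 0 to 3 with 1 library left out. For leading shares, all of whose settings were chosen after seeing the data, 19 became 6 with the block, 4 with the Y-linked covariate, 9 with Arntl, 6 without IR 1 and 4, and 4 to 31 with 1 library left out; diffSpliceDGE on transcripts ordered by size called 166 of 7934, its limma-voom form 90 and its form with 8 libraries 176. The causes of these differences were not tested. Over the named genes, 5798 values kept their side of the threshold and 1736 called values lost it. Shares by transcript class were not run.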
